A study of Mus musculus with 9 samples.

Results

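The genes described here are *Cd74*, *Ciita*, *H2-Aa*, *H2-Ab1*, *H2-Eb1*, *H2-DMa* and *H2-DMb1*, which encode chains of the MHC class II antigen-presenting molecules, their chaperones and their transcriptional activator. They were taken by symbol from the count table, 7 of its 46095 gene symbols, and the choice was made with their values in these libraries in view. Low counts removed *H2-DMa* from the tests, which left 6 of the 7 among 14593 genes. The genes were chosen by their levels in the S and DDKO libraries defined below, with the difference between these genotypes and the spread within DDKO both known, so these values are given as a description, with no p.

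Intestinal epithelial cells (IECs) of the colon were compared between mice that lacked *Smad4* (libraries S-1 to S-4, labelled Smad4-knockout) and mice that also lacked *Setd2* (libraries DDKO-1 to DDKO-5, labelled Smad4-knockout;Setd2-knockout). Floxed alleles were deleted by Cre under the Villin promoter, which acts in the gut epithelium, so leukocytes and stroma keep both genes, and the deletion of *Smad4* is shared by all 9 libraries. All mice were kept on a C57BL/6J background, received the carcinogen azoxymethane (AOM, 10 mg/kg) at 8 weeks of age and dextran sodium sulphate (DSS, 2%) in the drinking water, and were sampled at 10 days of this treatment. The cells were released from the colon with EDTA, and mRNA libraries were made from total RNA of each preparation. Neither the labels nor the methods say in words that each library came from a different mouse, so the p-values below measure the spread between these preparations.

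MHC class II molecules are pairs of an alpha and a beta chain that show peptides from the endosome to CD4+ T cells. The invariant chain *Cd74* escorts new pairs and blocks their groove, cathepsins trim it, and H2-DM exchanges its last fragment for a peptide. Transcription of the whole family depends on the co-activator *Ciita*, which interferon-gamma induces in the gut epithelium and which acts on the X and Y boxes of the promoters through the RFX and NF-Y proteins. Dendritic cells, macrophages and B cells carry class II at all times, so a few of these leukocytes in an epithelial preparation can add class II RNA.

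The X and Y boxes are shown here because they are the feature of the promoters through which the family is switched together. RefSeq promoter sequences of build GRCm38.p6 were found for *H2-Aa*, *H2-Eb1*, *H2-DMa* and *H2-DMb1*, and those of *H2-Ab1*, *Cd74* and *Ciita* were not analysed here. In the stretches below, read 5′ to 3′ along the gene, capitals mark the X-box core GNAACT and the Y-box core GATTGG.
H2-Aa, chr17:34287852-34287919, minus strand: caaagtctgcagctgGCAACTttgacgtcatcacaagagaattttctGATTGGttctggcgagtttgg
H2-Eb1, chr17:34305761-34305827, plus strand: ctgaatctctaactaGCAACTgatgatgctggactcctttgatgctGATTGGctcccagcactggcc
H2-DMb1, chr17:34153095-34153124, plus strand: taGTAACTgatgatgctaggctgattcact
The X core began 81 bases before the annotated start of *H2-Aa* and 91 before that of *H2-Eb1*, and 26 and 25 bases separated it from the Y core. In *H2-DMb1* the X core began at -94 and the Y core, outside the letters printed, at -62, again with 26 bases between them. These positions count from the RefSeq start, and the GENCODE model of *H2-DMb1* begins 119 bases further upstream, so that the stretch printed lies inside that model. An X core followed by a Y core at 5 to 40 bases, on either strand within 250 bases before the start, was present in these 3 of the 4 class II genes with an entry. These 4 genes had 5 promoters, of which 3 held the pair, as did 0.499% of 32851 promoters. The cores alone were common, with GNAACT in 37.3% and GATTGG in 14.6% of all promoters, and in 3 and 4 of those 5. *H2-DMa* had the Y core and no X core.

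The class II genes other than *Cd74* and *Ciita* lie in the H2 complex of chromosome 17, and the counts of that region were low as a whole. In GRCm38 with GENCODE M21 models, *H2-Ab1* lies at chr17:34257689-34269419 (plus strand), *H2-Aa* at chr17:34282744-34287823 (minus), *H2-Eb1* at chr17:34305867-34316674 (plus), *H2-DMb1* at chr17:34153072-34160230 (plus) and *H2-DMa* at chr17:34119541-34139101 (plus). Of 82 protein-coding genes from *H2-K1* to *H2-D1* (chr17:33996012-35267497), 39.0% had no count in any library, against 20.1% of the 926 other protein-coding genes of the chromosome. The median level in this stretch, which was chosen after the values were seen, was 0.0242 CPM (counts scaled to the normalized library total) against 2.64 CPM on the rest of the chromosome and 4.19 CPM for all other protein-coding genes. *Csnk2b*, *Bag6*, *Prrc2a* and *Clic1*, which nearly every cell uses and which were chosen after their values were seen, were listed at 0 in all 9 libraries, as was the class I gene *H2-D1*. *Brd2*, which also overlaps *H2-DMa* on the opposite strand, had 4 to 12 counts per library. Levels of the 5 H2 genes can therefore not be read as their expression, while *Cd74* (chr18:60803848-60812652, plus strand) and *Ciita* (chr16:10480059-10528418, plus strand) lie outside the region. The sources used here do not say how reads that fit several places were counted.

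**Figure D1:**
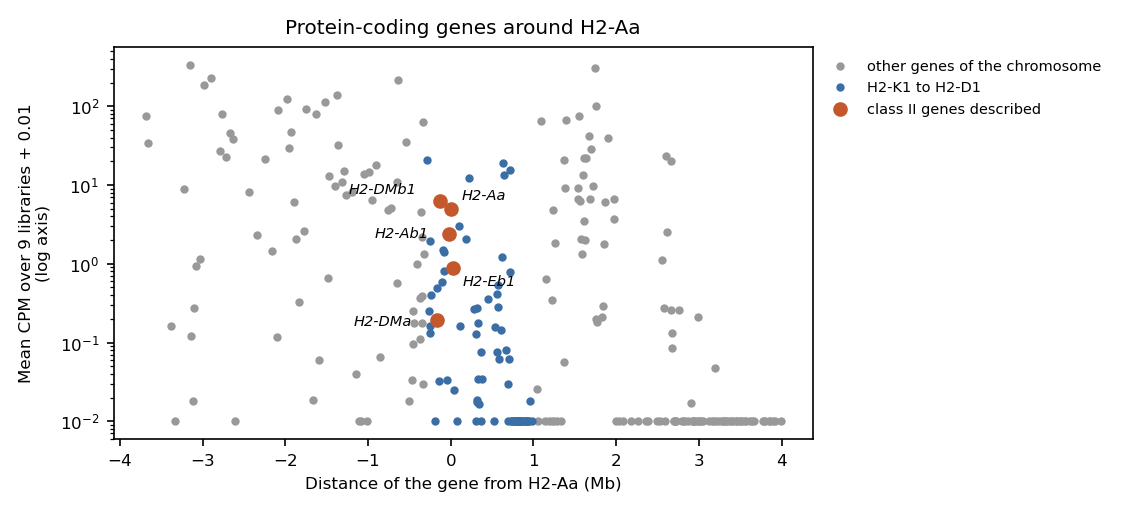
Mean CPM over the 9 libraries plus 0.01 (log axis) of each protein-coding gene against its distance from *H2-Aa* in Mb, with genes from *H2-K1* to *H2-D1* in blue, other genes of the chromosome in grey and the class II genes described in orange. Of the 82 genes of that stretch, 32 lie on the lowest line because they had no count in any library.

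The libraries held 12487129 to 17120202 counts in S and 12729533 to 14637157 in DDKO, and a floor of 3 counts was worth 0.178 to 0.238 CPM after TMM normalization, which corrects the library total for its composition. *Setd2* was at 99.2 to 120.1 CPM in S and 53.9 to 87.1 in DDKO, and *Smad4*, deleted in both, at 54.3 to 92.7 and 38.2 to 114 CPM. *Epcam*, which defines epithelial cells, was at 1805 to 2029 CPM over the 9 libraries. DDKO-1, DDKO-2 and DDKO-5 had 4907, 4745 and 3857 counts of Y-linked genes, while every S library had at most 1 and DDKO-3 and DDKO-4 had 28 and 0. Since all libraries with many Y-linked counts were DDKO, values are also given for the 6 libraries with at most 100 of them, which are called libraries without Y-linked counts below.

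*Cd74* had the highest counted level of the 7 genes, 5 of which lie in the region of low counts, and the wider spread within DDKO of the 2 genes outside the H2 region. It was at 479, 425, 433 and 369.6 CPM in S-1 to S-4, and at 499, 982, 81.7, 62.9 and 299 CPM in DDKO-1 to DDKO-5. The S libraries lay within 1.29-fold of each other, whereas the highest DDKO library stood 15.6-fold above the lowest, and the DDKO values surrounded the S values on both sides. The means were 426 ± 44.7 CPM (SD, n = 4) in S and 385 ± 378 CPM (SD, n = 5) in DDKO, a fitted log2 fold change of -0.15 (standard error, SE, 0.64). With single libraries left out this fold change lay between -0.85 and 0.14. Relative to the S mean, DDKO-1 and DDKO-2 stood at 1.17 and 2.30, DDKO-5 at 0.701, and DDKO-3 and DDKO-4 at 0.192 and 0.148. These low values rested on 1169 and 800 counts, far above the floor, against 7792 and 13802 counts in DDKO-1 and DDKO-2.

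*Ciita*, the activator, lies outside the H2 complex as well and, as for *Cd74*, was highest in DDKO-2 and lowest in DDKO-3 and DDKO-4, with smaller steps. Its levels were 20.6, 23.2, 20.6 and 24.1 CPM in S-1 to S-4 and 23.5, 48.1, 8.25, 9.36 and 17.4 CPM in DDKO-1 to DDKO-5. DDKO-2 was above every S library, DDKO-3, DDKO-4 and DDKO-5 were below every S library, and DDKO-1 lay among them. The spread was 1.17-fold in S and 5.83-fold in DDKO, and the means were 22.1 ± 1.80 CPM in S (SD, n = 4) and 21.3 ± 16.2 CPM in DDKO (SD, n = 5), with a log2 fold change of -0.05 (SE 0.43, between -0.59 and 0.16 with single libraries left out). *Dexi* overlaps *Ciita* on the opposite strand, and whether the counting used strand is not given in the sources used here.

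**Figure D2:**
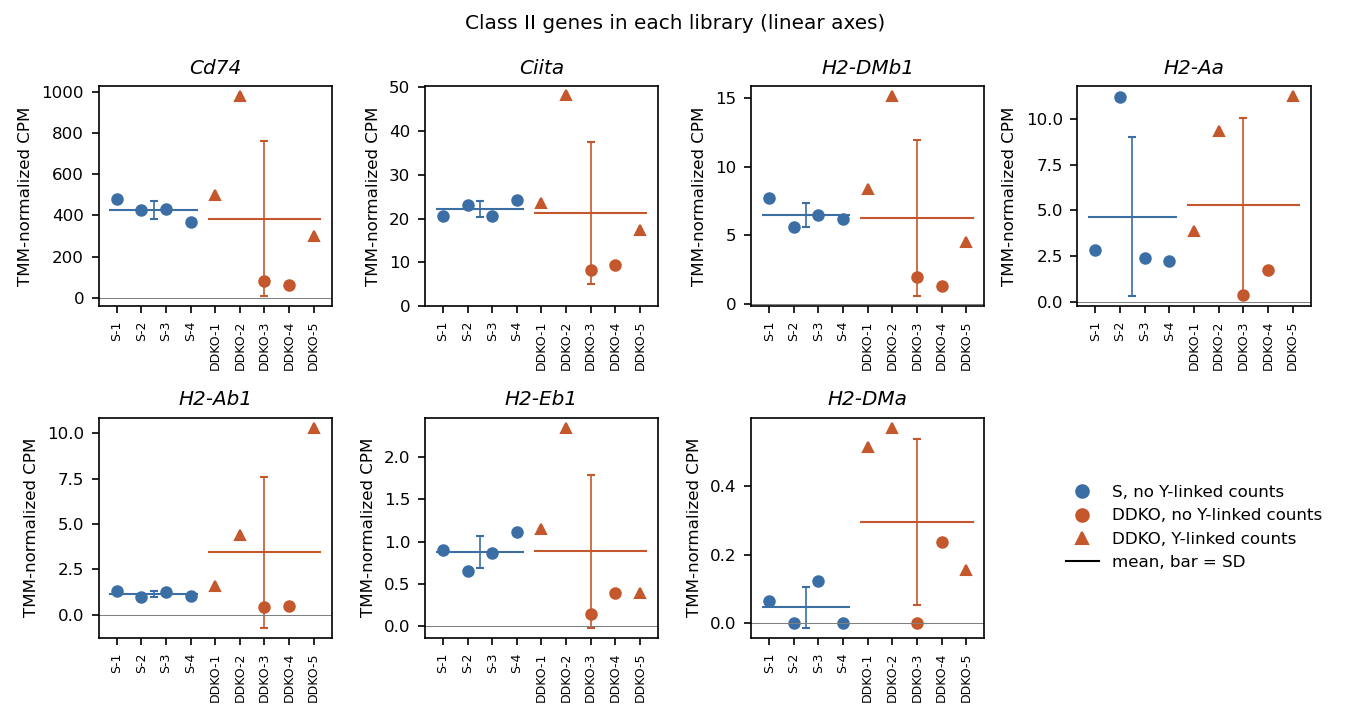
TMM-normalized CPM of each class II gene in S-1 to S-4 (blue) and DDKO-1 to DDKO-5 (orange), on linear axes with a separate scale for each gene. Triangles mark libraries with Y-linked counts, horizontal lines the means and bars the SD, and DDKO-2 is above and DDKO-3 below all S libraries for *Cd74*, *Ciita*, *H2-DMb1*, *H2-Ab1* and *H2-Eb1*.

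*H2-DMb1* encodes the beta chain of the peptide exchanger and showed nearly the same profile as *Cd74*. It was at 7.70, 5.59, 6.45 and 6.19 CPM in S-1 to S-4 and at 8.33, 15.2, 1.96, 1.26 and 4.50 CPM in DDKO-1 to DDKO-5. Again DDKO-1 and DDKO-2 were above and DDKO-3, DDKO-4 and DDKO-5 below every S library, with a spread of 1.38-fold in S and 12.04-fold in DDKO. The means were 6.48 ± 0.889 CPM in S (SD, n = 4) and 6.24 ± 5.70 CPM in DDKO (SD, n = 5), for a log2 fold change of -0.05 (SE 0.57, between -0.68 and 0.22 with single libraries left out). Its near copy *H2-DMb2* had 0 or 1 count in each library, and the counting could split reads between the pair. *H2-Oa* and *H2-Ob*, which encode an inhibitor of H2-DM, were listed at 0 in every library and at 0 or 1 count. *H2-DMa*, the alpha chain of the same exchanger, had 1, 0, 2 and 0 counts in S-1 to S-4 and 8, 8, 0, 3 and 2 counts in DDKO-1 to DDKO-5. With 3 counts in all of S and 21 in all of DDKO it was too low for a fold change, and its 2 highest libraries were DDKO-1 and DDKO-2.

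The chains of the peptide-binding pair H2-A were less uniform. *H2-Ab1*, its beta chain, was at 1.28, 0.951, 1.23 and 1.03 CPM in S-1 to S-4 and at 1.60, 4.41, 0.419, 0.472 and 10.3 CPM in DDKO-1 to DDKO-5. DDKO-5 held the highest value, at 9.18 times the S mean and from 133 counts, although *Cd74*, *Ciita* and *H2-DMb1* of that library were all below S. DDKO-3 and DDKO-4 were the lowest libraries, with 6 counts each. The log2 fold change of 1.60 (SE 0.82), the highest of the class II genes, moved to 0.63 without DDKO-5, and the means were 1.12 ± 0.158 CPM in S (SD, n = 4) and 3.44 ± 4.17 CPM (SD, n = 5).

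*H2-Aa*, the alpha chain, varied in S too. Its levels were 2.82, 11.2, 2.40 and 2.22 CPM in S-1 to S-4 and 3.85, 9.32, 0.350, 1.73 and 11.2 CPM in DDKO-1 to DDKO-5. S-2 and DDKO-5 were the highest libraries, with 188 and 145 counts, and DDKO-3 was the lowest with 5 counts. The genotypes overlapped over most of their range, with means of 4.65 ± 4.35 CPM in S (SD, n = 4) and 5.30 ± 4.77 CPM in DDKO (SD, n = 5) and a log2 fold change of 0.17 (SE 0.78), which was 1.08 without S-2 and -0.28 without DDKO-5.

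*H2-Eb1* encodes the beta chain of the H2-E pair, whose alpha chain gene is a pseudogene in the reference strain and was listed at 0 in every library under the name *H2-Ea-ps*. *H2-Eb1* was at 0.898, 0.654, 0.860 and 1.11 CPM in S-1 to S-4 and at 1.15, 2.35, 0.140, 0.393 and 0.388 CPM in DDKO-1 to DDKO-5. These values came from 11 to 14 counts in each S library, from 18 and 33 counts in DDKO-1 and DDKO-2, and from 2, 5 and 5 counts in DDKO-3 to DDKO-5, so that DDKO-3 was under the floor of 3 counts. The means were 0.881 ± 0.188 CPM in S (SD, n = 4) and 0.885 ± 0.902 CPM in DDKO (SD, n = 5), and the log2 fold change was 0.03 (SE 0.63, between -0.71 and 0.31 with single libraries left out). Unlike *H2-Aa* and *H2-Ab1*, *H2-Eb1* did not have its highest DDKO level in DDKO-5. The antisense gene *Gm20513* overlaps it.

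Of the 6 class II genes tested, edgeR (quasi-likelihood, Benjamini-Hochberg adjusted p under 0.05) called 0 between the genotypes, where it called 13.3% of all genes tested, 6.76% higher and 6.54% lower in DDKO. All 6 overlapped between S and DDKO, where 8.34% of all genes tested had every DDKO library above every S library and 8.87% every DDKO library below. Their median log2 fold change was -0.01 and that of all genes tested -0.0006. The genes were chosen with this contrast in view, and nothing is read from these counts. The level of the genes differed far more than the genotypes did. Per kilobase of merged exon in S, *Cd74* was at 254 CPM, *H2-DMb1* at 3.86, *Ciita* at 2.32, *H2-Aa* at 1.23, *H2-Eb1* at 0.453, *H2-Ab1* at 0.438 and *H2-DMa* at 0.0136 CPM per kilobase. *Cd74* thus stood 207-fold above *H2-Aa*, whose S mean includes S-2 at 11.2 CPM beside 2.22 to 2.82 CPM in the other S libraries. It stood 580-fold above *H2-Ab1* on this per-length scale, while *H2-Eb1* and *H2-Ab1* differed by less than their SDs of 0.0965 and 0.0614 CPM per kilobase. The low counts of the H2 region move with this order, and their part in it was not tested.

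The spread within DDKO was a common feature of the genes. The SD of log2 CPM among the 5 DDKO libraries was 1.69 for *Cd74*, 1.03 for *Ciita*, 1.42 for *H2-DMb1*, 1.86 for *H2-Aa*, 1.84 for *H2-Ab1* and 1.24 for *H2-Eb1*. The median over these 6 genes was 1.55, beside 0.26 over all genes tested. Among the S libraries the same SD was 0.15, 0.12, 0.19, 1.07, 0.18 and 0.27 in that order, with a median of 0.19 beside 0.16 over all genes tested. *Ciita* stood at percentile 96.5 and the others at percentiles 98.4 to 99.8 of the SDs in DDKO, whereas in S all but *H2-Aa*, at percentile 98.7, stood at percentiles 32.9 to 73.3. The genes were chosen for this spread, so these percentiles describe the choice.

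**Figure D3:**
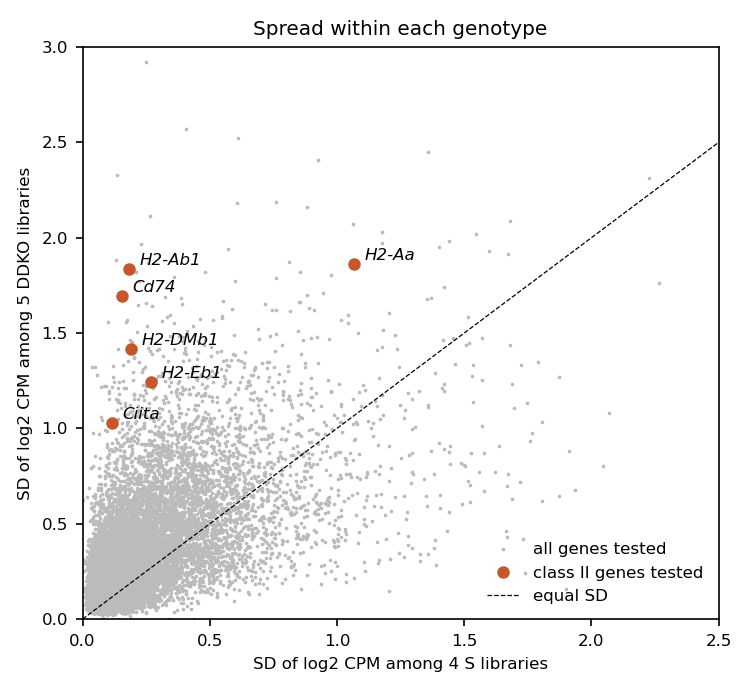
SD of log2 CPM among the 4 S libraries (x axis) and among the 5 DDKO libraries (y axis) for every gene tested in grey, with the class II genes in orange and a dashed line where both are equal. All 6 class II genes lie above the line, and *H2-Aa* is the one with a high SD among S libraries as well.

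The genes did not keep a fixed ratio to each other. The ratio was steadiest for *H2-DMb1* to *Cd74*, which ranged from 1.32 counts per 100 counts of *Cd74* in S-2 to 2.40 in DDKO-3, a 1.82-fold range against the 15.6-fold range of *Cd74* itself. Counts of *H2-Aa* per 100 of *Cd74* ranged from 0.428 in DDKO-3 to 3.76 in DDKO-5, with S-2 at 2.63 and DDKO-4, from 22 counts, at 2.75. *H2-Ab1* lay at 0.224 to 0.284 per 100 of *Cd74* in S and at 3.45 in DDKO-5. *Cd74* was low relative to its activator in DDKO-3 and DDKO-4, with 1531 to 2324 counts per 100 of *Ciita* in S, 2129, 2042 and 1721 in DDKO-1, DDKO-2 and DDKO-5, and 991 and 672 in DDKO-3 and DDKO-4. Over the 9 libraries, Pearson's r of log2 CPM was 0.99 for *Cd74* with *H2-DMb1* (Spearman's rho 0.98), 0.96 for *Cd74* with *Ciita* (rho 0.75) and 0.37 for *H2-Ab1* with *H2-Eb1* (rho 0.48). These are descriptions, since all points share the depth and makeup of their library and the DDKO spread sets them.

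DDKO-3 and DDKO-4, the DDKO libraries without Y-linked counts, were the lowest DDKO libraries for *Cd74*, *Ciita*, *H2-DMb1*, *H2-Aa* and *H2-Ab1*, while for *H2-Eb1* DDKO-5, at 0.388 CPM, was level with DDKO-4, at 0.393 CPM. DDKO-5, which had Y-linked counts, was also below every S library for *Cd74*, *Ciita*, *H2-DMb1* and *H2-Eb1* and above every S library for *H2-Ab1*. For *H2-Aa* it was level with S-2, at 11.24 and 11.17 CPM. Among the 6 libraries without Y-linked counts, S-1 to S-4 with DDKO-3 and DDKO-4, the mean of *Cd74* in DDKO was 0.170 times that in S. In the same libraries the mean of *Ciita* was 0.398, of *H2-DMb1* 0.248, of *H2-Aa* 0.223 (with S-2, at 11.2 CPM, in its S mean), of *H2-Ab1* 0.397 and of *H2-Eb1* 0.303 times that in S. All 6 genes had every DDKO library below every S library there, as did 23.6% of all genes tested, and these genes were chosen with the DDKO spread in view. In edgeR, 3 of the 6 (*Cd74*, *H2-DMb1* and *Ciita*) were called lower there, where 19.4% of all genes tested were called, 10.1% lower. The same 3 were called lower over all 9 libraries when a term for Y-linked counts was added, where 8.81% of all genes tested were called, 4.47% higher and 4.33% lower. Nothing is read from these counts either. In the subset the fitted log2 fold changes were -2.55 for *Cd74*, -1.99 for *H2-DMb1* and -1.33 for *Ciita*, and the median over the 6 genes was -1.85. The SD of log2 CPM between DDKO-3 and DDKO-4 had a median of 0.35 over the genes. The 3 DDKO libraries with Y-linked counts have no S library to be compared with, so sex and genotype cannot be told apart in them, and with 2 DDKO libraries in the subset the individual preparation cannot be told apart from it either. In bulk RNA, fewer cells that carry class II and less class II RNA per cell cannot be told apart.

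The proteins that assemble on the class II promoters with *Ciita* were compared between the genotypes. Of 11 such genes tested, edgeR called 0 higher and 1 lower in DDKO, beside 6.76% and 6.54% of all genes tested, while 2 were higher before adjustment, 1 with DESeq2 and 0 with limma-voom. The lower gene was *Rfxank*, a subunit of the RFX complex, at 34.5, 28.8, 28.1 and 26.99 CPM in S-1 to S-4 and 16.3, 18.6, 22.6, 17.8 and 25.8 CPM in DDKO-1 to DDKO-5, with every DDKO library below every S library (log2 fold change -0.55, SE 0.14, adjusted p = 0.0303 from edgeR). The order of its DDKO libraries was not that of *Cd74*, since DDKO-1 was lowest and DDKO-3 above DDKO-2 and DDKO-4. The call was lost without S-1, S-2, S-3, S-4, DDKO-1, DDKO-2 or DDKO-4 and after a term for Y-linked counts was added, where the log2 fold change lay between -0.60 and -0.46 (adjusted p 0.00599 to 0.109 over all alternatives). *Rfx5* and *Rfxap*, the other subunits, had log2 fold changes of 0.14 (SE 0.14) and 0.05 (SE 0.12).

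Of the interferon-gamma signalling genes, which lie upstream of *Ciita*, 0 of 11 tested were called in edgeR, with 3 higher and 1 lower at an unadjusted p under 0.05, and with 2 higher in DESeq2 and 0 in limma-voom. Among the 6 libraries without Y-linked counts, 0 were higher and 1 lower, where 9.29% of all genes tested were higher and 10.1% lower. The receptor chains *Ifngr1* and *Ifngr2* were at 246 to 294 and 121 to 174 CPM over the 9 libraries. *Irf1*, which acts on the *Ciita* gene, was at 243 to 268 CPM in S and at 269, 315, 215, 261 and 288 CPM in DDKO. In DDKO-3 and DDKO-4, where *Ciita* was at 0.373 and 0.423 times its S mean, *Irf1* lay below and within the S range, respectively. *Ifng* itself had 4, 1, 5 and 0 counts in S-1 to S-4 and 32, 15, 1, 10 and 0 counts in DDKO-1 to DDKO-5, and DDKO-1 had the most.

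Genes that interferon-gamma induces were compared next. Of 22 tested, 1 was higher and 0 lower in DDKO at an adjusted p under 0.05 in edgeR (8 higher and 0 lower unadjusted, 3 and 0 with DESeq2, 0 and 0 with limma-voom), where 6.76% of all genes tested were higher and 6.54% lower. Of the 22 log2 fold changes, 21 were above 0, with a median of 1.004, as were 7291 of the 14593 over all genes tested, with a median of -0.0006. After a term for Y-linked counts was added, 6 of the 22 were above 0 with a median of -0.31, beside 48.6% of all genes tested, and in the libraries without Y-linked counts 7 of 21 with a median of -0.29, beside 49.4%. *Ido1*, an enzyme of tryptophan breakdown, was the called gene, at 7.57, 18.0, 14.99 and 16.4 CPM in S-1 to S-4 and 82.6, 163, 23.8, 31.1 and 23.8 CPM in DDKO-1 to DDKO-5 (log2 fold change 2.19, SE 0.60, adjusted p = 0.0357 from edgeR). Its call was lost without S-1, S-2, S-3, S-4 or DDKO-1, where the log2 fold change lay between 1.99 and 2.32, with limma-voom, and after the term for Y-linked counts was added, where it was 0.95 (adjusted p 0.00826 to 0.326 over the alternatives). *Gbp2*, a GTPase against intracellular pathogens, was at 147 and 164 CPM in DDKO-1 and DDKO-2 and at 27.1 and 28.9 CPM in DDKO-3 and DDKO-4, within the S range of 23.6 to 37.6 CPM. In 9 of the 21 genes tested without Y-linked libraries, by contrast, DDKO-3 and DDKO-4 were both below every S library, and in 1 both were above, beside 23.6% and 21.7% of all genes tested. Those below were *Nlrc5*, *Tapbp*, *B2m*, *H2-K1*, *Gbp3*, *Gbp6*, *Gbp7*, *Irgm2* and *Zbp1*. *Gbp6*, a relative of *Gbp2* chosen after its values were seen, was at 17.002 to 18.7 CPM in S and at 66.7, 103, 13.1, 15.9 and 29.9 CPM in DDKO-1 to DDKO-5.

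*Nlrc5*, the activator of class I genes and a relative of *Ciita*, went below S in DDKO-3 and DDKO-4 as the class II genes did. It was at 53.1, 51.9, 47.7 and 62.4 CPM in S-1 to S-4 and at 121, 148, 21.9, 31.5 and 42.5 CPM in DDKO-1 to DDKO-5. Over all libraries its log2 fold change was 0.44 (SE 0.49, adjusted p = 0.573 from edgeR). Among the 6 libraries without Y-linked counts it was -1.01 (SE 0.16, adjusted p = 0.00297), and with the Y-linked term over all libraries it was -1.01 with a wider SE of 0.40 (adjusted p = 0.141). In that subset, 19.4% of all genes tested were called in edgeR, and the interferon-induced list had 1 higher and 4 lower of its 21 genes tested, against 9.29% of all genes higher and 10.1% lower. Of the 11 genes of the class II loading pathway, 2 were lower there and 0 over all libraries (1 lower unadjusted and 1 with DESeq2). *Ctss*, the cathepsin that trims the invariant chain and a gene chosen after its values were seen, was at 363 to 424 CPM in S and at 346, 532, 251, 259 and 320.0 CPM in DDKO, with a log2 fold change of -0.60 (SE 0.09, adjusted p = 0.00292 from edgeR) among the libraries without Y-linked counts. Over all libraries its log2 fold change was -0.18 (SE 0.20, adjusted p = 0.551), and with the Y-linked term it was -0.61 (SE 0.19, adjusted p = 0.0701), where the call was lost.

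**Figure D4:**
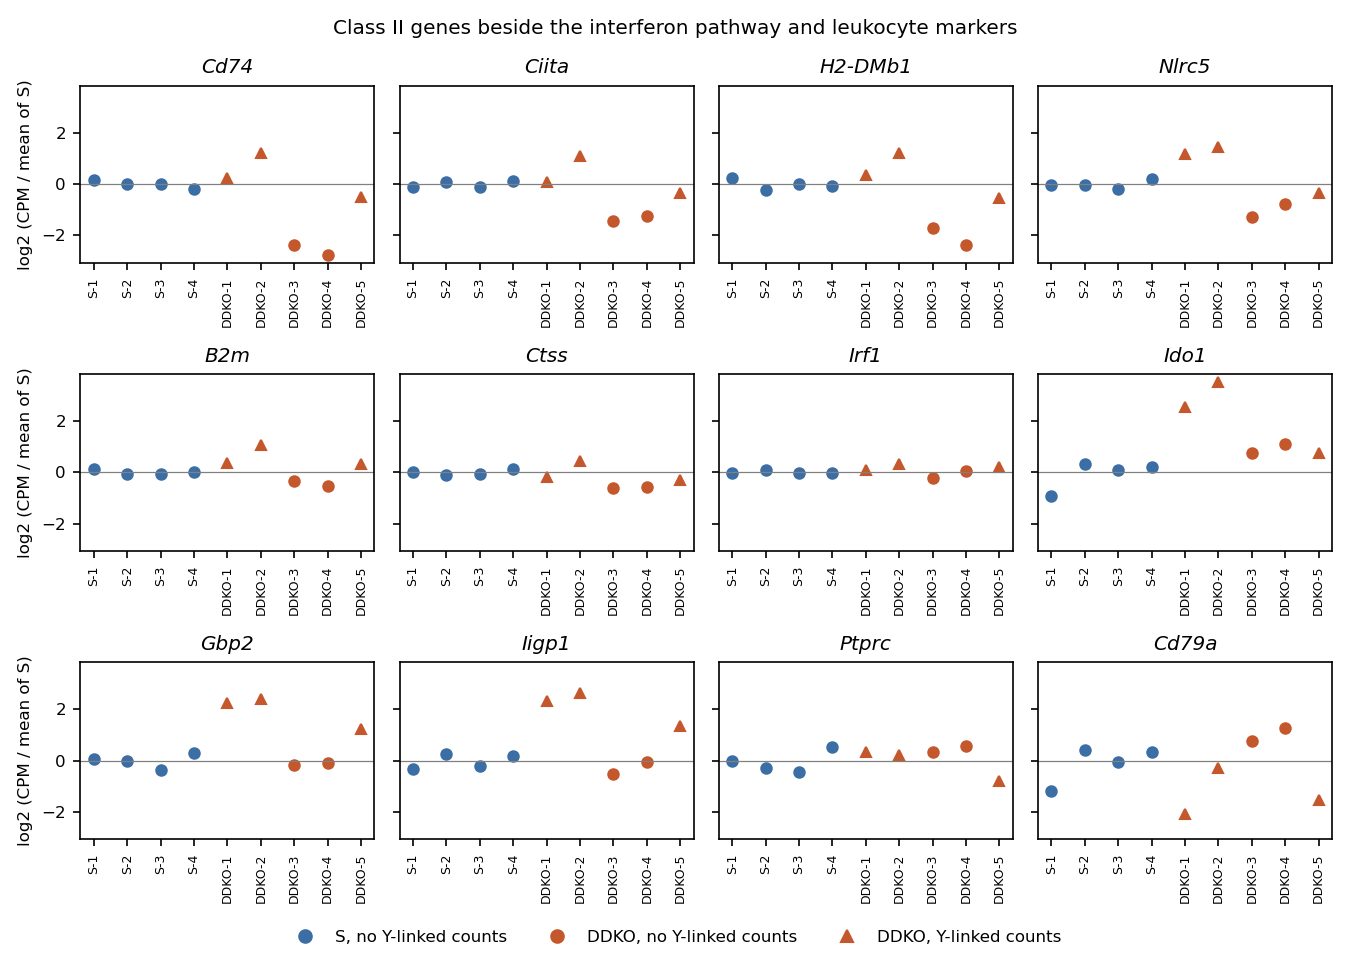
Log2 of CPM over the S mean in each library for 3 class II genes, the class I genes *Nlrc5* and *B2m*, the loading protease *Ctss*, the interferon-gamma pathway genes *Irf1*, *Ido1*, *Gbp2* and *Iigp1*, and the leukocyte markers *Ptprc* and *Cd79a*, with S in blue, DDKO in orange and triangles for libraries with Y-linked counts. *Cd74*, *Ciita*, *H2-DMb1*, *Nlrc5*, *B2m* and *Ctss* of DDKO-3 and DDKO-4 lie below S, *Gbp2* of these libraries does not, and *Cd79a* of both is above every S library.

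Ligands that stimulate or inhibit T cells on contact were compared as well. Of 5 tested, 1 was higher and 1 lower at an adjusted p under 0.05 in edgeR, beside 6.76% and 6.54% of all genes tested, and *Cd86*, *Icosl* and *Cd274* were not called. *Lgals9*, a galectin bound by inhibitory receptors, was at 312 to 353 CPM in S and at 898, 983, 441, 522 and 449.9 CPM in DDKO (log2 fold change 0.96, SE 0.24, adjusted p = 0.0267), and it stayed above S where *Cd74* was lowest. *Vtcn1*, an inhibitory B7 relative, was at 3.14, 3.03, 3.50 and 5.32 CPM in S and 1.03, 1.92, 0.979, 0.944 and 2.09 CPM in DDKO (log2 fold change -1.42, SE 0.32, adjusted p = 0.0170). The call of *Lgals9* was lost without any 1 of the S libraries, with log2 fold changes of 0.92 to 0.98, and with the Y-linked term, where it was 0.51, and that of *Vtcn1* without S-4 (-1.21). Their adjusted p ranged over the alternatives from 0.000743 to 0.215 and from 0.000914 to 0.0533.

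Genes with the profile most like that of the class II genes were sought among 13695 other genes whose mean reached 1 CPM, by Pearson's r of log2 CPM with the mean of the 6 class II genes, both centred within each genotype, over the 9 libraries. The 10 highest were *Hp1bp3* (r = 0.99), *Rnf216* and *Zbp1*, *Glis3* and *Rnf114* (each 0.97), and *Nck2*, *Irgm2*, *Lrrc47*, *Gm4951* and *Trim25* (each 0.96). The likeness is in order and not in size. *Hp1bp3* moved from 128 CPM in DDKO-3 to 175 in DDKO-2, and *Glis3* from 4.75 to 15.2 CPM, whereas *Gm4951* moved from 0.280 CPM in DDKO-3, which was 4 counts, to 35.4 in DDKO-2. Of the genes of the lists used here, *Zbp1* and *Irgm2* were among the 10, *B2m* had r = 0.95 and rank 17, and *Nlrc5* r = 0.87 and rank 294. Centring leaves the DDKO spread to set these values, and they are a description.

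Markers of B cells, plasma cells, dendritic cells and macrophages were compared with the class II genes, and those of B cells did not follow them. The summed level of 13 B cell and plasma cell markers was 21.4 to 56.8 CPM in S and 54.2, 52.6, 59.9, 90.6 and 27.2 CPM in DDKO-1 to DDKO-5, so that DDKO-4, with the least *Cd74*, had the most of them. Much of this sum was *Jchain*, a plasma cell gene, so it does not measure B cells alone. *Jchain* was at 8.79, 24.7, 11.1 and 17.9 CPM in S-1 to S-4 and at 45.7, 31.0, 31.5, 36.4 and 15.7 CPM in DDKO-1 to DDKO-5. *Cd79a*, a defining B cell gene, was at 1.28, 3.98, 2.83 and 3.73 CPM in S-1 to S-4 and 0.705, 2.42, 5.03, 7.16 and 1.01 CPM in DDKO-1 to DDKO-5, so that the libraries with the least *Cd74* had the most of it (Pearson's r with the centred class II mean, -0.64 over 9 libraries). The 17 dendritic cell and macrophage markers summed to 24.4, 43.2, 35.7 and 111 CPM in S-1 to S-4 and 61.2, 51.9, 32.8, 44.4 and 35.1 CPM in DDKO-1 to DDKO-5, with S-4 the highest from 63.8 CPM of *Lyz2*. Within DDKO this sum was highest in DDKO-1 and DDKO-2 and lowest in DDKO-3. *C1qa*, a complement gene of macrophages chosen after its values were seen, was at 0.513, 1.49, 2.83 and 2.70 CPM in S-1 to S-4 and 4.23, 2.13, 0.629, 1.02 and 1.09 CPM in DDKO-1 to DDKO-5, again higher in DDKO-1 and DDKO-2 than in DDKO-3 and DDKO-4 (r = 0.47 with the centred class II mean). That was the highest r of the 10 markers of this list with a mean of at least 1 CPM, of which 7 had an r above 0, with a median of 0.22 and the lowest, -0.33, for *Cx3cr1*. *Cx3cr1*, a chemokine receptor of macrophages, was at 1.09, 0.925, 1.26, 1.26 and 0.543 CPM in DDKO-1 to DDKO-5. Of the B cell and plasma cell markers, 0 of 11 had an r above 0, with a median of -0.44. The part of these cells in the class II levels was not tested. Of the genes that mark dendritic cells, *Xcr1*, which is limited to a subset of them, had 0 to 2 counts per library, *Flt3* had 3 to 24, and *Itgax*, which macrophages also carry, had 49 to 126. None of the 12 tested markers of either list was called in edgeR (unadjusted, 1 marker of the B cell and plasma cell list was higher and no dendritic cell or macrophage marker was called, with the same counts in DESeq2 and 0 in limma-voom). The 5 markers of all leukocytes summed to 63.1 to 103 CPM in S and to 101, 97.7, 80.1, 99.1 and 47.1 CPM in DDKO-1 to DDKO-5, and *Ptprc* was at 38.3 ± 12.3 CPM in S (SD, n = 4) and 44.0 ± 12.9 CPM in DDKO (SD, n = 5). DDKO-5, with the most *H2-Ab1*, thus had the least leukocyte RNA by this sum. *Vav1* of this list was lower in every DDKO library than in every S library (means 13.4 and 17.1 CPM). In edgeR it was not called (adjusted p = 0.159). It was called lower with the Y-linked term (adjusted p = 0.043) and in the libraries without Y-linked counts (adjusted p = 0.0269). Of the 4 markers of this list with a mean of at least 1 CPM, 2 had an r above 0. The highest was 0.82 for *Vav1* and the lowest -0.36 for *Ptprc*. In S the libraries S-2 and S-4 had the highest sums of B cell and plasma cell markers, and *H2-Aa* was high in S-2 alone.

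**Figure D5:**
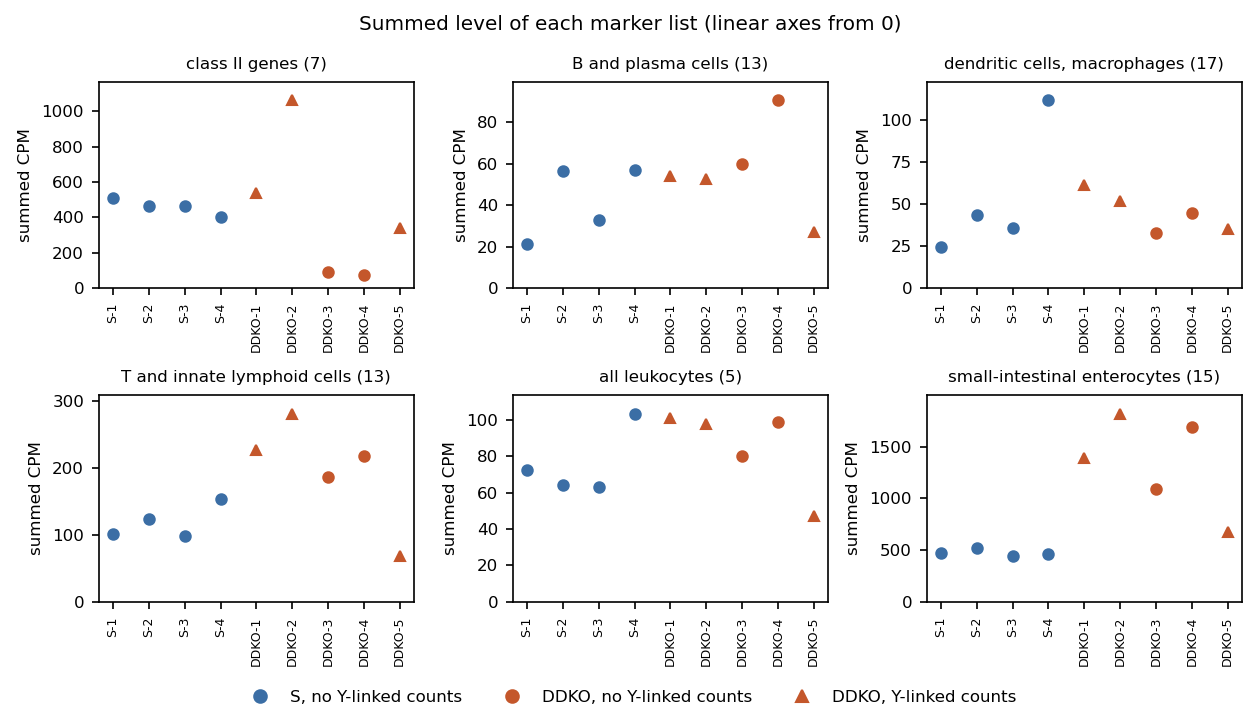
Summed CPM in each library of the 7 class II genes and of 5 marker lists, with the number of genes in parentheses, on linear axes from 0, with S in blue, DDKO in orange and triangles for libraries with Y-linked counts. The class II sum is 92.8 and 76.4 CPM in DDKO-3 and DDKO-4. The sums of B and plasma cell markers and of leukocyte markers in those libraries lie among or above the others.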

How the data were processed

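For 9 libraries (4 S, 5 DDKO) the authors deposited raw counts, 1 row for each gene symbol and without normalization. The submitters' processing notes name HISAT2 2.0 and mm10. The counting program, annotation, strand setting and treatment of multi-mapping reads are not given in the sources used here. Of 46095 symbols, 27 had become dates and stayed unnamed in the totals and tests. In R 4.3.3, genes were filtered with filterByExpr, normalized with TMM and tested with the quasi-likelihood test of edgeR 4.0.16 over all 9 libraries without covariates, with Benjamini-Hochberg adjustment and a threshold of 0.05. SDs used log2 CPM with a prior count of 2. The pipeline was tested on simulated counts. Alternatives were DESeq2 1.42.0, limma-voom (limma 3.58.1), other scalings, filters and prior counts, each library left out, a replicate block, a term for Y-linked counts and the libraries without them. The most alike libraries of 1 genotype still differed by a chi-square of 9.22 per gene, so all were counted as replicates.

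The class II genes and the lists were chosen with earlier results of these data known. Other genes are named if a list gene had an adjusted p under 0.05 (at most 6 per list), if they are defining markers or direct class II regulators, or by likeness. Gene positions came from GENCODE M21 and RefSeq on GRCm38.p6, the assembly that mm10 stands for. Floors and counts cover counting error only. Some genes of the lists are not reported here.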

Additional observations from a re-analysis of the deposited data

Results flagged for a closer look

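*H2-Aa* in S-2, at 11.2 CPM, stood apart from the other S libraries, which lay at 2.22 to 2.82 CPM. Its gap to the nearest of them was 0.933 of the range of the group, above Dixon's limit for 4 samples. The value came from 188 counts, and in the same library *Cd74*, *Ciita*, *H2-DMb1*, *H2-Ab1* and *H2-Eb1* were at 425, 23.2, 5.59, 0.951 and 0.654 CPM, and none of these was the highest of its group. Among the 14 groups examined (7 genes in 2 genotypes) it was the 1 such value, and chance alone gives about 1 in 20 groups.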

How the results depend on the processing

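The values of the H2 genes rest on few counts from a region where many genes have none, and 3 counts set the floor. The class II genes had 0 calls, and 3 of 6 (*Cd74*, *H2-DMb1* and *Ciita*) were called lower with the Y-linked term and in the libraries without Y-linked counts, from which nothing is read. Their sign turned in 9 of 17 alternatives for *H2-Aa*, 7 for *H2-Eb1* and 2 for *H2-Ab1*, and in 5, 3 and 2 of 18 for *H2-DMb1*, *Ciita* and *Cd74*. With the term for Y-linked counts and in the libraries without them their median was -1.85 in both cases, beside -0.01, and the median SD in DDKO was 0.35 in the latter, beside 1.55. With single libraries left out the median lay between -0.63 and 0.25 and the SD between 1.30 and 1.68. With limma-voom the median was -0.42, with *Cd74* at -0.84 and *H2-Ab1* at 0.61. The cause of none of these shifts was tested.

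Over all genes, 986 were higher and 955 lower, with single libraries left out 455 to 1380 and 392 to 1316, with the Y-linked term 653 and 632, and in the libraries without Y-linked counts 1406 and 1524. The count fell most without S-3, to 847 in all. In the class II pathway and interferon-gamma lists, 2 were higher and 2 lower. Higher were 7 with DESeq2, 1 with limma-voom, 4 without the filter and 0 with the Y-linked term, and lower were 1 with that term and 10 in the libraries without Y-linked counts, with ranges of 0 to 9 and 0 to 4 for single libraries left out. In the leukocyte and stroma lists, 2 were higher and 0 lower. Higher were 4 with DESeq2, 0 with limma-voom, 4 without the filter, 4 with the block, 1 with the Y-linked term and 4 without Y-linked libraries, with 1 lower in each of the last 2 and 0 to 5 higher and 0 lower for single libraries left out. Of the enterocyte markers of the small intestine 10 were higher, 6 with limma-voom and 7 to 12 with single libraries left out, and of the epithelial markers 0, with 1 under DESeq2, 1 under library size alone and 0 to 1 with single libraries left out.

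S and DDKO share the replicate numbers 1 to 4, and same-numbered libraries had correlations of -0.15 to 0.03 of their deviations. The numbers thus gave no sign of pairs, which a check on so few libraries cannot exclude. With the replicate number as a block 1581 genes were called, against 2696 in the same libraries without it.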

Other observations

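Markers of enterocytes of the small intestine were higher in DDKO libraries with high and low class II levels alike. Of 13 tested, 10 were higher and 0 lower in edgeR at an adjusted p under 0.05, where 6.76% of all genes tested were higher. *Mttp*, which loads lipid onto lipoproteins, was at 2.37 to 5.47 CPM in S and 116, 123, 91.4, 150.1 and 30.1 CPM in DDKO-1 to DDKO-5 (log2 fold change 4.53, SE 0.45, adjusted p = 0.000285 from edgeR), so that DDKO-4, with the least *Cd74*, had the most. *Sis*, the brush border sucrase-isomaltase, was highest in the same library, at 278 CPM against 0.449 to 7.43 CPM in S (log2 fold change 5.75, SE 0.70, adjusted p = 0.000985). *Enpep*, *Npc1l1*, *Slc10a2* and *Fabp6* had log2 fold changes of 5.84, 5.24, 3.46 and 2.84. DDKO-5, where *H2-Ab1* and *H2-Aa* were highest, was the lowest DDKO library for each of these genes. *Muc2*, the goblet cell mucin, was lower in all DDKO libraries, at 1672 to 2758 CPM against 4835 to 7554 CPM in S (log2 fold change -1.62, SE 0.18, adjusted p = 0.000542).

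The granule proteases of cytotoxic lymphocytes were the called leukocyte genes. *Gzma* was at 8.47 to 13.7 CPM in S and 30.9, 43.7, 47.5, 59.3 and 10.2 CPM in DDKO-1 to DDKO-5 (log2 fold change 1.77, SE 0.41, adjusted p = 0.0187 from edgeR), and *Gzmb* at 6.74 to 15.4 CPM and 55.6, 69.7, 24.1, 36.0 and 7.13 CPM (log2 fold change 1.94, SE 0.53, adjusted p = 0.0364). *Gzma* was thus highest in DDKO-3 and DDKO-4, where the class II genes were lowest, and *Gzmb* in DDKO-1 and DDKO-2, where *Cd74* was highest. The call of *Gzmb* was lost without S-1, S-2, S-3, S-4, DDKO-1, DDKO-2 or DDKO-4, with log2 fold changes of 1.62 to 2.21, with limma-voom (1.70, adjusted p = 0.117) and with the Y-linked term (1.58, adjusted p = 0.147), and that of *Gzma* without S-1 (1.66) or S-3 (1.69) and with limma-voom (1.60, adjusted p = 0.0614). Adjusted p ranged over the alternatives from 0.00327 to 0.147 for *Gzmb* and from 0.00012 to 0.0667 for *Gzma*. Of 6 stromal and endothelial markers tested 0 were called in edgeR, with 2 higher at an unadjusted p under 0.05, 1 with DESeq2 and 0 with limma-voom.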
